A study of Homo sapiens with 12 samples.

Results

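The 53 genes described here encode the proteins that copy DNA in S phase. They were chosen by name from the count table, which held 49651 genes with counts, and all 53 were found there and passed the filter on low counts, among 14704 genes that did. By role they are 8 genes of origin recognition and licensing, 12 of the replicative helicase, 5 kinases and regulators of the G1/S transition, 9 of the polymerases and primase, 7 of the sliding clamp and its loaders, 5 of single-strand binding and Okazaki fragment processing, 4 of nucleotide supply and 3 of fork protection. The libraries came from D283, an established human medulloblastoma cell line, with ABL1 and ABL2 genetically inactivated (inactivated group, 3 libraries) or with a scrambled construct (control group, 3 libraries). Each library was sequenced on 2 lanes, which were summed. The sources used here do not say how the kinase genes were inactivated, whether a group was 1 clone or a pool, or whether the libraries of a group were separate cultures. The p-values therefore speak of the spread between these libraries alone, which may be technical.

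In each cell cycle, the origin recognition complex marks the sites where copying can start, and CDC6 and CDT1 load the ring of MCM2 to MCM7 around the DNA in G1. At the start of S phase the kinases CDC7 and cyclin E with CDK2 turn the loaded ring, with CDC45 and the GINS complex, into an active helicase. Polymerase alpha with its primase then lays primers, polymerases delta and epsilon extend them on the PCNA clamp, and RPA coats the exposed single strands. Many of these genes are transcribed together by E2F factors as cells enter S phase, and dividing cells in culture express them.

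Both targeted mRNAs were lower in all 3 inactivated libraries. ABL1, a tyrosine kinase gene, had 62.1, 62.3 and 61.1 CPM (read counts on a common library total, with TMM scaling factors) in the inactivated libraries, against 157, 148 and 154 CPM in the control libraries. ABL2, its close relative, had 97.5, 112 and 102 CPM in the inactivated libraries, against 144, 136 and 134 CPM in the control libraries. The edgeR log2 fold changes were -1.31 ± 0.043 for ABL1 and -0.41 ± 0.051 for ABL2. Libraries held 34292341 to 49034159 counts in the inactivated group and 33505903 to 35893081 in the control group, and the 53 genes had between 454 and 25447 counts in a library, so counting error was small. Within a group, the coefficient of variation of a member lay between 0.175% and 8.61%. All 7 Group 3 medulloblastoma markers checked were expressed in both groups, with summed levels of 2846 to 2953 CPM in inactivated and 2613 to 2642 CPM in control libraries. Single markers differed in both directions. IMPG2 and CRX averaged 315.7 and 95.8 CPM in inactivated and 66.7 and 51.5 CPM in control libraries. OTX2 and PROM1 averaged 665.5 and 204.5 CPM in inactivated and 829.8 and 250.8 CPM in control libraries. Of 16 fibroblast, immune and endothelial markers, 7 passed the filter. The 6 immune markers summed to at most 1.109 CPM in inactivated and 1.324 CPM in control libraries. CD3E and COL3A1 were at 0 in all libraries. The 6 fibroblast markers summed to 33.4 to 36.9 CPM in inactivated and 42.7 to 46.2 CPM in control libraries, and the 4 endothelial markers to 9.66 to 11.02 CPM in inactivated and 4.12 to 4.46 CPM in control libraries. KDR made up most of the endothelial sum in inactivated libraries, PECAM1 had at most 7 counts in a group and CDH5 at most 1.

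The replication genes moved in both directions, by little, and their total hardly differed. By edgeR's quasi-likelihood test with Benjamini-Hochberg adjustment over all 14704 genes and a threshold of 0.05, 18 of the 53 members rose in inactivated cells, 16 fell and 19 did not pass. Over all genes tested 29.6% were called higher and 29.7% lower, so the members' shares of 34.0% and 30.2% lay near the background. Counts by role below are to be set beside the same background shares, and nothing particular to a role is read from them. The median log2 fold change (inactivated over control) was -0.013 over the members and 0.0031 over all genes tested. The summed level of the 53 genes was 7385, 7245 and 7453 CPM in the inactivated libraries and 7388, 7420 and 7313 CPM in the control libraries, and the groups overlapped. In bulk RNA, fewer cells in S phase and less mRNA per cell cannot be told apart.

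Most changes were small. Of the members 42 (79.2%) differed by less than 1.25-fold, against 55.2% of all genes tested. Only ORC3 and RFC2 (3.77% of the members) were called with a change of at least 1.5-fold, where 24.0% of all genes were. These shares were not matched for level. The members averaged 15.62 to 513.2 CPM, while the genes tested included some near the filter, such as SHMT1 with 51 counts in inactivated and 43 in control libraries. Whether the members were more stable than genes of like level was not tested. Inactivated and control libraries had separate ranges for 35 members, 18 higher and 17 lower in inactivated cells. Among all genes tested 63.2% were separated in this way, 31.4% higher and 31.9% lower.

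**Figure D1:**
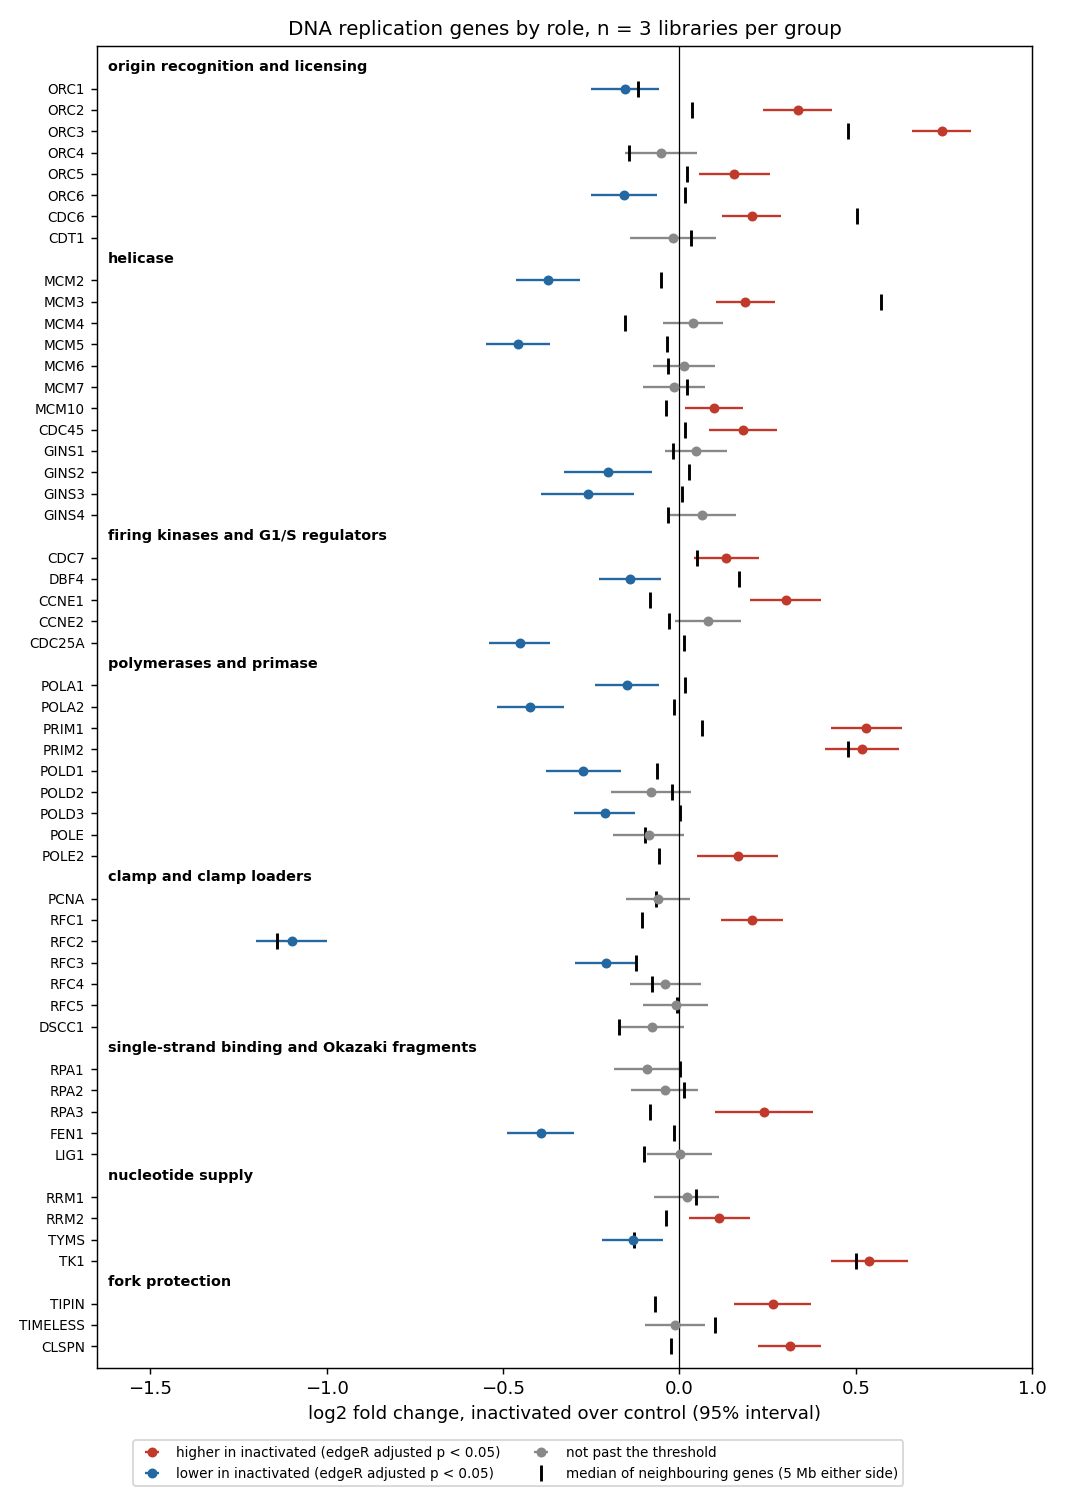
Log2 fold change of each of the 53 genes, inactivated over control, with its 95% interval from edgeR, ordered by role (x axis, log2 scale; 3 libraries per group). Points to the right are higher in inactivated cells, colours give the call, and black ticks give the median log2 fold change of the tested genes within 5 Mb on either side. RFC2 stands apart at -1.10 and ORC3 at 0.74, and 42 of the members lie within 1.25-fold of no change.

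Among origin recognition and licensing genes, 4 of 8 rose, 2 fell and 2 did not pass. ORC3 encodes a subunit of the origin recognition complex and spans bases 87590135 to 87677823 of chromosome 6 (GRCh38.p14, forward strand). It had 166, 170.1 and 165 CPM in the inactivated libraries, against 101, 99.3 and 99.8 CPM in the control libraries. This was the largest increase of any member, 1.67-fold, with a log2 fold change of 0.74 ± 0.040 (SE) and an edgeR adjusted p of 8.56e-12. ORC2, a further core subunit, had 100.4, 104 and 104 CPM in inactivated and 80.8, 86.4 and 77.0 CPM in control libraries (log2 fold change 0.34 ± 0.047, adjusted p 4.9e-06).

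Of the other 4 subunits of the complex 1 rose and 2 fell, each by less. ORC1, the ATPase subunit whose level is cell cycle regulated in human cells, averaged 53.8 ± 1.33 CPM in inactivated and 59.8 ± 1.79 CPM in control libraries (SD, n = 3 per group here and below), a log2 fold change of -0.15 ± 0.046. ORC6, the subunit least tightly bound to the complex, averaged 54.2 ± 1.41 CPM in inactivated and 60.5 ± 1.363 CPM in control libraries, a log2 fold change of -0.16 ± 0.045. ORC5 rose by 0.16 ± 0.048 on the log2 scale, and ORC4 did not pass, with 57.5 ± 1.59 CPM in inactivated and 59.6 ± 3.10 CPM in control libraries. The ORC1 call was lost without control replicate 1 (edgeR adjusted p 0.0574) or on lane 1 alone (0.0944), and the ORC5 call on lane 1 alone (0.054).

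Of the loading factors, CDC6 rose and CDT1 did not pass. CDC6, the ATPase that recruits the MCM ring to origins, had 204, 199 and 204 CPM in the inactivated libraries and 174, 178 and 174 CPM in the control libraries (log2 fold change 0.20 ± 0.039, adjusted p 0.000187). CDT1, which escorts the ring, averaged 34.4 ± 2.49 CPM in inactivated and 34.8 ± 1.03 CPM in control libraries, with a 95% interval of -0.14 to 0.10 for its log2 fold change.

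In the helicase, 3 of 12 genes rose, 4 fell and 5 did not pass, and subunits of the MCM ring were called in both directions. MCM5 spans bases 35400140 to 35455031 of chromosome 22, forward strand. It had 162, 149 and 159.6 CPM in the inactivated libraries, against 213, 213 and 219 CPM in the control libraries. Its level fell by 27.2%, with a log2 fold change of -0.46 ± 0.043 and an adjusted p of 2.93e-08. MCM2, its neighbour in the ring, had 253, 243 and 264 CPM in inactivated and 339, 321 and 324 CPM in control libraries (log2 fold change -0.37 ± 0.044, adjusted p 5.3e-07). These were the 2 MCM subunits that fell, and all 3 inactivated libraries lay below all control libraries for each.

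MCM3 went the other way. It had 492, 476 and 485 CPM in the inactivated libraries and 424, 431 and 420.2 CPM in the control libraries, a log2 fold change of 0.19 ± 0.040 (adjusted p 0.000545). The neighbours of MCM3 on chromosome 6 had a median of 0.57, and relative to neighbours its value was -0.38, the same direction as MCM2 (-0.32) and MCM5 (-0.42). MCM4, MCM6 and MCM7, which form the catalytic core, did not pass, with log2 fold changes of 0.038, 0.013 and -0.015 and 95% intervals that lay between -0.10 and 0.12. Relative to their neighbours these 3 did not share that direction, at 0.19 for MCM4, 0.047 for MCM6 and -0.038 for MCM7. Per kilobase of exon, MCM3 had the highest level of the 6 subunits in every inactivated library and MCM7 in every control library, while MCM5 had the lowest in all 6. The highest exceeded the lowest 3.67-fold to 3.87-fold in inactivated libraries and 2.54-fold to 2.68-fold in control libraries. MCM3 and MCM7 lay close, at means of 139.7 and 133 CPM per kilobase in inactivated and 122.7 and 134.4 in control libraries. The order between subunits depends on the exon length, the union of all annotated exons of each gene, and is uncertain.

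**Figure D2:**
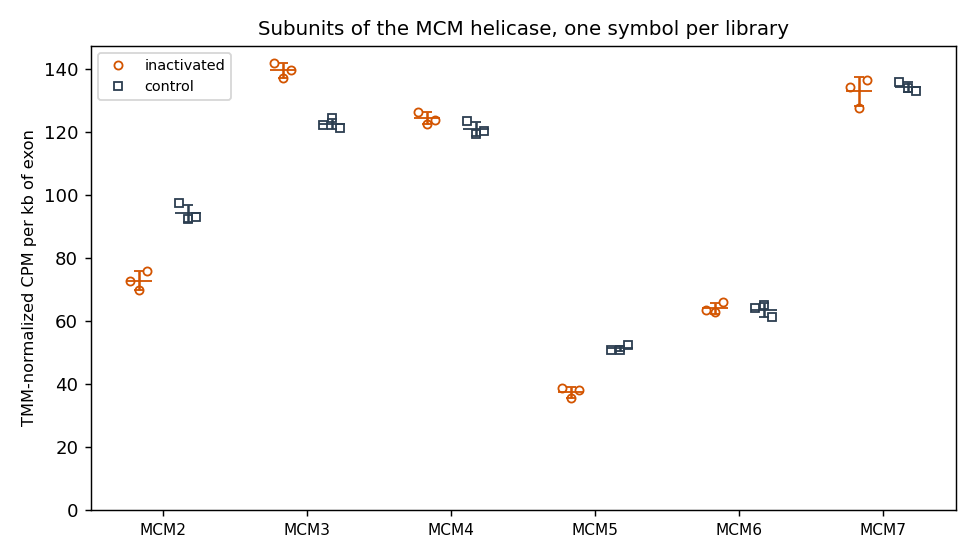
Levels of the 6 subunits of the MCM ring in CPM per kilobase of exon (y axis, linear, from 0), 1 symbol per library, with the mean and SD of 3 libraries as bars; inactivated libraries are circles on the left of each gene and control libraries squares on the right. MCM2 and MCM5 lie lower in inactivated cells, MCM3 higher, and MCM4, MCM6 and MCM7 overlap between the groups.

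The factors that join the ring to form the active helicase were called in both directions, with log2 fold changes smaller in size than those of MCM2 and MCM5. CDC45, the protein that binds the opened ring, averaged 55.7 ± 2.04 CPM in inactivated and 49.1 ± 0.339 CPM in control libraries (log2 fold change 0.18 ± 0.046, adjusted p 0.00246). GINS2 and GINS3, subunits of the GINS complex, averaged 32.8 ± 2.83 and 21.5 ± 1.37 CPM in inactivated cells, against 37.7 ± 0.620 and 25.7 ± 1.23 CPM in control cells, and both fell. GINS1 and GINS4 did not pass, with log2 fold changes of 0.046 ± 0.042 and 0.064 ± 0.045. MCM10, which helps to activate the assembled helicase, had a log2 fold change of 0.099 ± 0.039 with an adjusted p of 0.0372. That call was lost in edgeR without inactivated replicate 3 (0.118), control replicate 2 (0.102) or control replicate 3 (0.0917), on lane 2 alone (0.0526) and with no filter on low counts (0.125).

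Of the kinases and G1/S regulators, 2 of 5 rose, 2 fell and 1 did not pass. CDC25A, the phosphatase that removes the inhibitory phosphate from CDK2, had 114, 110.5 and 118 CPM in the inactivated libraries, against 153, 156 and 159 CPM in the control libraries. It fell by 27.0% (log2 fold change -0.45 ± 0.042, adjusted p 2.04e-08), and no library of a group reached the range of the other. CCNE1, which encodes cyclin E1, the activator of CDK2, had 48.3, 45.8 and 46.7 CPM in inactivated and 38.0, 38.6 and 37.7 CPM in control libraries (log2 fold change 0.30 ± 0.048, adjusted p 2.21e-05).

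CCNE2, the second cyclin E gene, averaged 133 ± 1.58 CPM in inactivated and 126 ± 6.99 CPM in control libraries and did not pass. INTS8 covers 43.7% of its exon bases on the opposite strand and had 45864 counts over all libraries against 29023 for CCNE2, and how strands were counted is not given, so the CCNE2 level is uncertain. CDC7, the kinase that phosphorylates the loaded MCM ring, and DBF4, its activating subunit, differed in direction. CDC7 averaged 77.1 ± 2.27 CPM in inactivated and 70.3 ± 1.95 CPM in control libraries (log2 fold change 0.13 ± 0.044), and DBF4 averaged 112 ± 3.77 CPM in inactivated and 123 ± 0.215 CPM in control libraries (log2 fold change -0.14 ± 0.042). The CDC7 call was lost without control replicate 3 (edgeR adjusted p 0.0696).

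Among the polymerase genes, 3 of 9 rose, 4 fell and 2 did not pass, and the sharpest contrast lay inside polymerase alpha. Its primase genes rose. PRIM1, the catalytic primase subunit, spans bases 56731580 to 56752323 of chromosome 12, reverse strand. It had 57.5, 56.1 and 58.1 CPM in the inactivated libraries, against 37.6, 40.5 and 40.8 CPM in the control libraries (1.44-fold, log2 fold change 0.53 ± 0.048, adjusted p 1.78e-08). PRIM2, the large primase subunit, had 60.1, 57.9 and 64.6 CPM in inactivated and 43.0, 41.2 and 43.3 CPM in control libraries (1.43-fold, log2 fold change 0.52 ± 0.050, adjusted p 4.56e-08). All inactivated libraries exceeded all control libraries for both genes. The neighbours of PRIM2 on chromosome 6 had a median of 0.48, near its own value, while those of PRIM1 had a median of 0.064.

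The polymerase subunits of the same complex fell. POLA2, the regulatory subunit, had 49.4, 46.8 and 49.2 CPM in the inactivated libraries and 65.6, 65.2 and 63.8 CPM in the control libraries, and so fell by 25.4% (log2 fold change -0.42 ± 0.045, adjusted p 1.59e-07). POLA1, the catalytic subunit, averaged 116 ± 2.12 CPM in inactivated and 129 ± 5.54 CPM in control libraries (log2 fold change -0.15 ± 0.043). Its call was lost without control replicate 1 (edgeR adjusted p 0.0552) or on lane 2 alone (0.0551).

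Of the polymerases that extend the primers, polymerase delta was lower in part. POLD1, its catalytic subunit, had 73.3, 65.9 and 69.7 CPM in inactivated and 84.5, 79.5 and 88.0 CPM in control libraries (log2 fold change -0.27 ± 0.050), and POLD3, an accessory subunit, 83.1 ± 1.23 CPM in inactivated and 96.3 ± 0.811 CPM in control libraries (log2 fold change -0.21 ± 0.041). POLD2 did not pass, with a log2 fold change of -0.081 and a 95% interval of -0.19 to 0.032. In polymerase epsilon, which extends the leading strand, the catalytic gene POLE did not pass (155 ± 8.67 CPM in inactivated and 165 ± 8.01 CPM in control libraries), although without inactivated replicate 2 it was called lower (edgeR adjusted p 0.0111). POLE2, its second subunit, averaged 36.0 ± 1.16 CPM in inactivated and 32.2 ± 1.74 CPM in control libraries and rose (log2 fold change 0.17 ± 0.055), a call lost without control replicate 1 (adjusted p 0.0708).

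**Figure D3:**
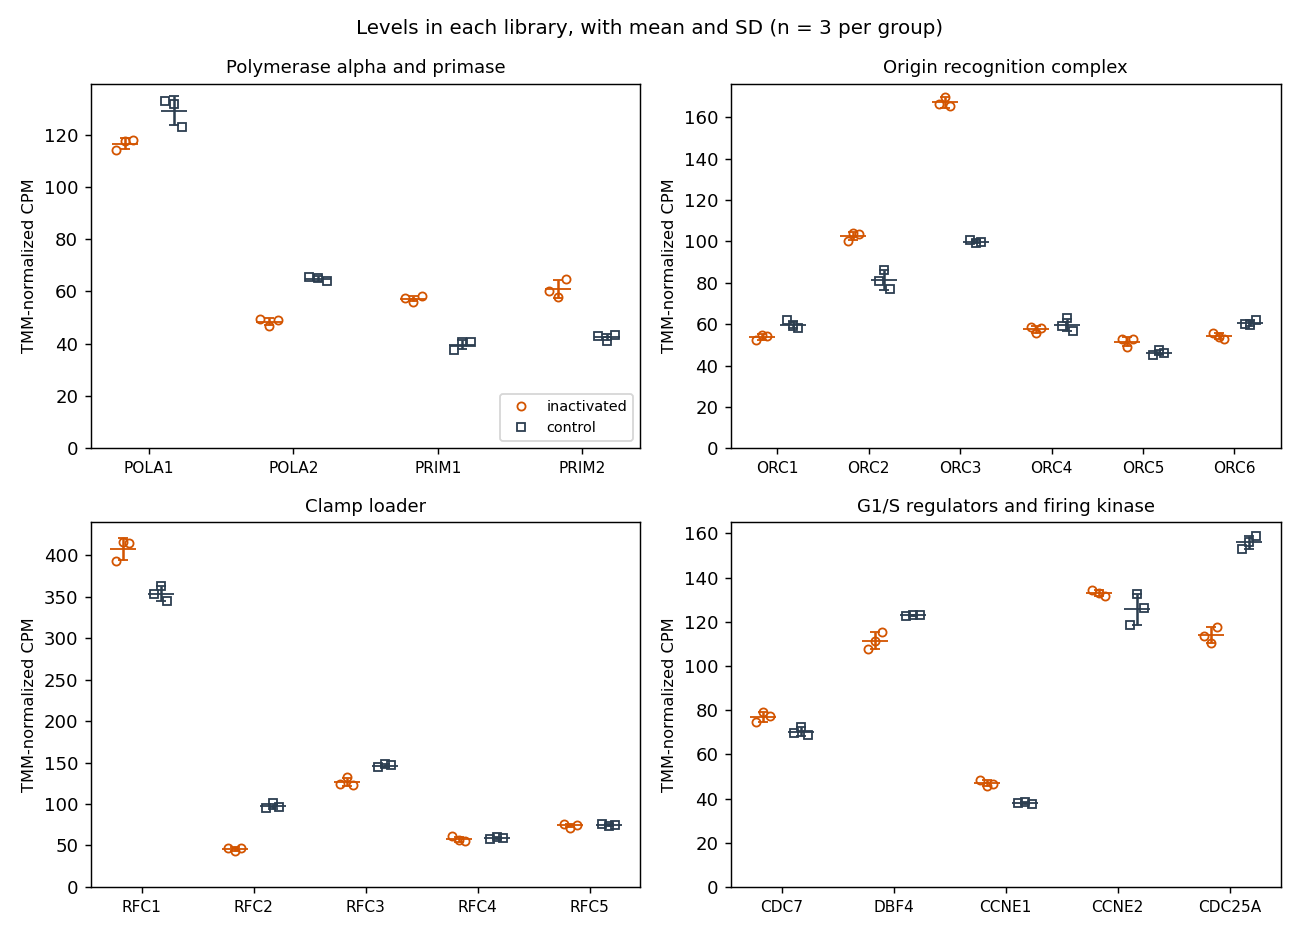
TMM-normalized CPM (y axes, linear, from 0) of the genes of polymerase alpha with primase, the origin recognition complex, the RFC clamp loader and the G1/S regulators, 1 symbol per library with the mean and SD of 3 libraries; inactivated libraries are circles on the left and control libraries squares on the right. PRIM1 and PRIM2 lie higher and POLA1 and POLA2 lower in inactivated cells, and RFC2 has 42.9 to 47.0 CPM in inactivated against 94.9 to 101 CPM in control libraries.

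For the sliding clamp and its loaders, 1 of 7 rose, 2 fell and 4 did not pass. RFC2, a small subunit of the loader that places PCNA on DNA, spans bases 74231502 to 74254399 of chromosome 7, reverse strand. It had 47.0, 42.9 and 46.8 CPM in the inactivated libraries, against 94.9, 101 and 96.8 CPM in the control libraries. In this member, which changed most of all 53, the level fell by 53.3%. On the log2 scale that was -1.10 ± 0.048, within 95% limits of -1.20 and -0.9985 (adjusted p 4.11e-13).

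Of the 4 partners of RFC2 1 rose and 1 fell, both by less. RFC1, the large loader subunit, had 393, 416 and 415 CPM in inactivated and 353, 363 and 345 CPM in control libraries and rose (log2 fold change 0.21 ± 0.042, adjusted p 0.000358). RFC3 averaged 127 ± 4.95 CPM in inactivated and 146 ± 1.64 CPM in control libraries and fell (log2 fold change -0.21 ± 0.042). RFC4 and RFC5 did not pass, with log2 fold changes of -0.040 and -0.011, and WSB2 on the opposite strand covers 19.5% of the exon bases of RFC5. DSCC1, a subunit of the alternative loader that acts in sister chromatid cohesion, had 78.3 to 83.3 CPM in inactivated and 83.96 to 86.2 CPM in control libraries, without overlap, but did not pass (log2 fold change -0.077 ± 0.043, adjusted p 0.135).

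PCNA, the clamp itself, did not pass. It had 339, 312 and 333 CPM in the inactivated libraries and 338, 347 and 342 CPM in the control libraries. Its log2 fold change of -0.061 had a 95% interval of -0.15 to 0.029, so a change of 1.25-fold lay outside the interval. PCNA-AS1 covers 26.7% of the exon bases of PCNA on the opposite strand but had 82 counts over all libraries against 74722.

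Among single-strand binding and Okazaki fragment genes, 1 of 5 rose, 1 fell and 3 did not pass. FEN1, the nuclease that trims the flaps of Okazaki fragments, had 158, 145 and 160.1 CPM in the inactivated libraries, against 201, 199.5 and 208 CPM in the control libraries. It fell by 23.9% (log2 fold change -0.39 ± 0.045, adjusted p 3.73e-07), while LIG1, the ligase that seals the same fragments, averaged 74.7 ± 1.18 CPM in inactivated and 74.6 ± 2.83 CPM in control libraries. RPA3, the smallest subunit of RPA, averaged 16.9 ± 0.610 CPM in inactivated and 14.3 ± 0.588 CPM in control libraries and rose (log2 fold change 0.24 ± 0.066, adjusted p 0.00425). RPA1 and RPA2, its larger partners, did not pass, with log2 fold changes of -0.093 ± 0.044 and -0.042 ± 0.045. RPA1 was called lower without control replicate 3 (edgeR adjusted p 0.0263) and on lane 2 alone (0.0291).

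In nucleotide supply, 2 of 4 genes rose, 1 fell and 1 did not pass. TK1, thymidine kinase of the salvage route, had 97.3, 86.6 and 93.6 CPM in the inactivated libraries, against 66.1, 59.9 and 64.8 CPM in the control libraries (1.45-fold, log2 fold change 0.54 ± 0.051, adjusted p 3.39e-08). TYMS, thymidylate synthase of the de novo route, had 243, 230.2 and 247 CPM in inactivated and 262, 265 and 262 CPM in control libraries and fell (log2 fold change -0.13 ± 0.041, adjusted p 0.00996). The 2 routes to thymidylate thus differed in direction, each with groups that did not overlap. ENOSF1 covers 38.2% of the exon bases of TYMS on the opposite strand but had 749 counts over all libraries against 55965.

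Of ribonucleotide reductase, which makes deoxyribonucleotides, the catalytic gene RRM1 did not pass, with 187 ± 3.21 CPM in inactivated and 184 ± 8.92 CPM in control libraries. RRM2, its S-phase regulated subunit, averaged 480.0 ± 5.18 CPM in inactivated and 444 ± 13.2 CPM in control libraries (log2 fold change 0.11 ± 0.041, adjusted p 0.0252). That call was lost in edgeR without inactivated replicate 3 (0.0869), control replicate 1 (0.0512) or control replicate 3 (0.109), and with no filter on low counts (0.052).

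Of the fork protection genes, 2 of 3 rose and 1 did not pass. CLSPN, which encodes claspin, the adaptor that carries the signal of a stalled fork to the kinase CHK1, had 170.2, 176 and 176 CPM in the inactivated libraries, against 142, 134 and 145 CPM in the control libraries (log2 fold change 0.31 ± 0.043, adjusted p 3.92e-06). TIPIN had 41.9, 42.7 and 44.2 CPM in inactivated and 33.7, 36.6 and 36.9 CPM in control libraries (log2 fold change 0.26 ± 0.052, adjusted p 0.000221). Its partner TIMELESS averaged 182 ± 2.56 CPM in inactivated and 184 ± 5.22 CPM in control libraries, with a 95% interval of -0.098 to 0.072 for its log2 fold change.

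The members include subunits of 11 complexes. Beside 29.6% of all genes called higher and 29.7% lower, nothing particular to the complexes is read from the count. Subunits were called in both directions in 5 of them: the origin recognition complex, the MCM ring, polymerase alpha with primase, the RFC loader and CDC7 with DBF4. Ratios of per-kilobase levels within a library do not depend on scaling between libraries, and these were chosen after the values were seen. The ratio of PRIM1 to POLA2 was 4.36, 4.49 and 4.42 in the inactivated libraries and 2.15, 2.32 and 2.39 in the control libraries. That of ORC3 to ORC6 was 1.95, 2.06 and 2.05 in inactivated and 1.10, 1.09 and 1.05 in control libraries. MCM5 to MCM3 gave 0.272, 0.258 and 0.272 in inactivated against 0.415, 0.408 and 0.431 in control libraries, with MCM3 below its own neighbours as given above. The exon length is the union of all annotated exons of a gene, which reaches 90335 bases for RFC3, 28560 for POLA1 and 25774 for PRIM2, so per-kilobase levels of these genes are low and were not used to compare genes.

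RFC2 and ORC3, which changed most, and 4 further members lay in stretches of the genome where other genes moved with them, while PRIM1, MCM5 and CDC25A, with changes of 0.53, -0.46 and -0.45, did not. Each member was set beside the tested genes within 5 Mb on either side. Around RFC2, the 62 neighbours had a median log2 fold change of -1.14, against -1.10 for RFC2. Around ORC3, PRIM2 and MCM3 on chromosome 6 the neighbours had medians of 0.48, 0.48 and 0.57, and around TK1 and CDC6 on chromosome 17 medians of 0.50 and 0.50. All 5 of these members rose. PRIM2 and TK1 differed from their neighbours by 0.039 and 0.038 on the log2 scale. ORC3 exceeded its neighbours by 0.27, while MCM3 and CDC6 lay below theirs, at -0.38 and -0.30 relative to them. The part of these neighbourhoods in the changes was not tested.

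For the other 47 members the neighbours had medians between -0.2 and 0.2, and 13 of these members rose, 15 fell and 19 did not pass. Among them were PRIM1 (neighbours 0.064), MCM5 (-0.034), CDC25A (0.012), POLA2 (-0.014), FEN1 (-0.014), MCM2 (-0.051), ORC2 (0.036), CLSPN (-0.025) and CCNE1 (-0.084), whose changes were at least 0.25 in size relative to these medians. The bound of 0.2 is wider than the members' own median size of change, 0.16. Some called members inside it lay near their neighbours, such as TYMS (-0.13, neighbours -0.13) and ORC1 (-0.15, neighbours -0.12). PRIM1 and TIMELESS lie within 1 stretch of chromosome 12, and of these PRIM1 rose and TIMELESS did not pass.

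**Figure D4:**
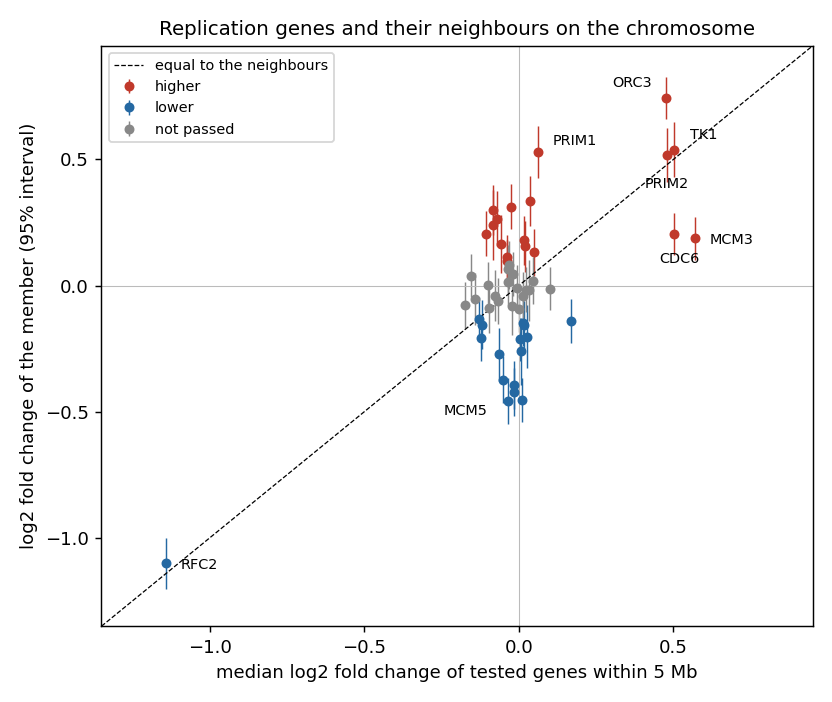
Log2 fold change of each of the 53 members with its 95% interval (y axis) against the median log2 fold change of the tested genes within 5 Mb on either side (x axis), both inactivated over control. RFC2, PRIM2 and TK1 lie near the dashed line of equal values, ORC3 lies above it and MCM3 and CDC6 below it, and 47 members lie in a column between -0.2 and 0.2 on the x axis.

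Many of the members carry the letters that E2F factors bind in their promoters, among genes that rose, fell and did not pass. RefSeq promoter windows (GRCh38.p14, 250 bases before to 50 after a gene's start) were matched by symbol to 45 of the members; CCNE2, DSCC1, GINS4, MCM4, MCM5, POLD3, RPA2 and RPA3 had no window in the table. Stretches before the start are shown for 2 members that fell, 2 that rose and 2 that did not pass, 5′ to 3′ on the gene's strand, with the E2F letters in capitals.
CDC25A (chr3:48188434-48188481, reverse strand): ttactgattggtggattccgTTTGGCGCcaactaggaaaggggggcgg
POLA2 (chr11:65261889-65261936, forward strand): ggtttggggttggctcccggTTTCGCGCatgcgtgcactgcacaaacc
ORC3 (chr6:87590103-87590134, forward strand): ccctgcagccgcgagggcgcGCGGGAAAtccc
TIPIN (chr15:66356720-66356767, reverse strand, before the more downstream of its listed starts): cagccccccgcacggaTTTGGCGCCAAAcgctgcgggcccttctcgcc
PCNA (chr20:5126654-5126701, reverse strand): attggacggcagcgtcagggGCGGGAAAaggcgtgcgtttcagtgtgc
MCM7 (chr7:100101398-100101426, reverse strand): cggtcacgtggggggcgacgTTTCGCGCc

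The letters searched were TTTCCCGC, TTTGGCGC, TTTCGCGC and TTTGCCGC on both strands. In TIPIN, matches on both strands overlap in TTTGGCGCCAAA. They were found for 22 of the 45 members (48.9%), against 6.56% of 11059 tested genes with a window and 3.99% of all 27305 genes with a window. Of the 22 members with a match, 7 rose, 8 fell and 7 did not pass, and their median on the log2 scale was -0.017. Of the 23 without, 10 rose, 6 fell and 7 did not pass, with a median of -0.011. The letters CCAAT were found on either strand for 27 members (60.0%) and 43.3% of tested genes, and the members with them had 12 increases and 5 decreases, against 5 and 9 among the 18 without, a split given as a description with no test. A match is a description of letters and not a measured binding site.

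Other genes of the replication machinery, listed by role with earlier results of these data known, moved likewise in both directions. Of 63 such genes 61 were tested, and 17 rose, 13 fell and 31 did not pass (their median was 0.023 on the log2 scale), where 59.3% of all genes were called. Of 13 further initiation genes 5 rose and 2 fell. GMNN, which encodes geminin, the inhibitor of CDT1, averaged 85.3 ± 5.32 CPM in inactivated and 55.0 ± 2.14 CPM in control libraries, with neighbours on chromosome 6 at a median of 0.58 against its own log2 fold change of 0.63. MCM9, also on chromosome 6, and WDHD1, a factor that links polymerase alpha to the helicase, rose by 0.35 and 0.24 on the log2 scale, and MCMBP, an MCM-binding protein, fell by 0.21.

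Of 17 further fork genes 16 were tested, and 5 rose and 5 fell. ATAD5, which unloads PCNA and lies on chromosome 17, averaged 82.3 ± 6.06 CPM in inactivated and 45.8 ± 1.73 CPM in control libraries (log2 fold change 0.85, neighbours 0.24). DNA2, a nuclease that acts on long flaps beside FEN1, averaged 63.4 ± 0.970 CPM in inactivated and 41.4 ± 1.77 CPM in control libraries (log2 fold change 0.62, neighbours 0.019). PARP1 rose by 0.36, near the median of 0.37 of its neighbours on chromosome 1, and POLE3, a histone-fold subunit of polymerase epsilon, fell by 0.36. CHTF8 is listed at 0 in all 6 libraries, as is DERPC, which covers 100% of its exon bases on the same strand, so its level is uncertain. Of 8 chromatin assembly genes 7 were tested, ASF1A and CHAF1B rose by 0.48 and 0.29, SUPT16H fell by 0.28 and 4 did not pass. ASF1B is also listed at 0 in all 6 libraries, and as the counting settings are not given, its level is uncertain too.

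Of 16 further nucleotide genes 5 rose and 5 fell, among them GMPS and NME1, which rose by 0.30 and 0.52, and CTPS1 and DCTD, which fell by 0.31 and 0.65. NME1 lies on chromosome 17 with neighbours at 0.44, and NME1-NME2 shares 60.3% of its exon bases, so its counts are uncertain. Of the 9 replication checkpoint genes 0 passed in edgeR, 0 had an unadjusted p under 0.05 and 0 passed in DESeq2. Among them ATRIP shares 83.3% of its exon bases with ATRIP-TREX1 on the same strand and had 118 counts over all libraries, so its counts are uncertain. RAD17 had 132 counts over all libraries and a log2 fold change of 0.098 ± 0.314, too imprecise to show a lack of change. CLSPN and TIPIN, which rose, were counted with fork protection and not in this list. The log2 fold changes of CHEK1 and WEE1, the most abundant of the checkpoint genes listed, were 0.084 ± 0.041 and -0.039 ± 0.043.

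Lists of E2F factors and of G2 and M genes, also chosen with earlier results known, were counted beside the same background of 29.6% higher and 29.7% lower, with no test between lists. Of 13 E2F factors and pocket proteins 12 were tested, and 7 rose, 4 fell and 1 did not pass. E2F8, a repressive E2F factor that is itself induced in S phase, had 22.4, 22.8 and 22.3 CPM in the inactivated libraries, against 7.12, 6.11 and 7.10 CPM in the control libraries (log2 fold change 1.73 ± 0.074, adjusted p 2.76e-13). E2F3 on chromosome 6 rose by 0.46 beside neighbours at 0.52, RBL2 rose by 0.44, and RB1, the founding pocket protein, fell by 0.32. Of 18 G2 and M genes 13 rose, 3 fell and 2 did not pass, and their median was 0.23 on the log2 scale. Their summed level was 4909 to 5073 CPM in inactivated and 3720 to 3810 CPM in control libraries, without overlap. Much of that difference came from TOP2A, CENPF and MKI67. These averaged 1079, 743 and 522 CPM in inactivated and 571, 466 and 337 CPM in control libraries. The summed levels of the replication members overlapped. TOP2A and CENPF, which lie beside neighbours with medians of 0.50 and 0.29, rose by 0.92 and 0.67, and MKI67 and CENPE, with neighbours at 0.019 and -0.16, rose by 0.63 and 0.53. The 3 that fell, named here after their values were seen, were CDK1, the kinase that drives mitotic entry, CCNB2, which encodes a B-type cyclin, and UBE2C, a ubiquitin-conjugating enzyme of mitotic exit. Their log2 fold changes were -0.23, -0.18 and -0.28, and that of CCNB1, the main mitotic cyclin gene, was -0.011 and did not pass. Whether the share of cells in each phase differed between the groups was not tested.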

How the data were processed

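RNA was extracted from cell pellets of D283 and sequenced as 50 bp paired-end mRNA libraries (KAPA mRNA HyperPrep Kit), per the labels' protocols. Per the submitters' processing notes, STAR 2.7.2b and featureCounts 1.6.3 were among the tools and GRCh38.p14 was the build, beside FastQC 0.11.9 and DESeq2 1.36.0. The authors deposited unnormalized counts for every gene in every lane, and the deposited table gives each gene's exon length in bases, another unit, used for levels per kilobase. Strand and multi-mapping settings are not given in the sources used here. Of 49677 genes, 26 without counts were left out.

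Lanes of a library, which differed little beyond sampling (chi-square over degrees of freedom 1.13 to 1.21), were summed. Genes were filtered with filterByExpr (minimum count 10, minimum total count 15), scaled by TMM and tested with edgeR 4.0.16 (quasi-likelihood F test, two-sided, Benjamini-Hochberg over 14704 genes, threshold 0.05). "Rose" and "fell" are used of genes past it. SEs were derived from the F statistic, and levels are TMM-scaled CPM. At this depth a count of 3 is 0.0612 to 0.0895 CPM in a library. In a simulation with 200 changed genes, run on 14230 genes, this test found 92.0% of the genes changed 1.5-fold, and 4.32% of its calls were false. In the data 8726 genes were called and most members changed by less than 1.5-fold, so these rates need not hold for them.

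The members and lists were chosen with earlier results of these data known. All members could be named; of the other lists the 4 past the threshold with the smallest p were named, or 2 by level where none passed. Other settings were RLE and upper-quartile scaling, DESeq2 1.42.0, no filter on low counts, a fold of 1.5 as the null, each lane alone, each library left out and subtraction of the neighbours' median. Promoter letters were searched in RefSeq windows.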

Additional observations from a re-analysis of the deposited data

How the results depend on the processing

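The counts of genes changed among all genes tested (8726) and of members called higher (18) or lower (16) moved by over 1.5 times only when a fold of 1.5 was the null in edgeR, which left 2280 genes in all, 1 member higher (ORC3) and 1 lower (RFC2). In every other setting the direction of each called member was kept, apart from the subtraction of the neighbours' median. With 1 library left out, the counts ranged from 7923 to 8725 in all, 15 to 18 higher and 14 to 17 lower. DESeq2 gave 7823 in all, 18 higher and 16 lower. Leaving the fold null and the subtraction aside, 13 of the 18 members called higher and 14 of the 16 called lower kept their call under every setting. Scaling moved the median of all genes little, to 0.0059 with RLE and 0.018 with upper-quartile factors.

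Log2 fold changes near 0 changed sign for members that never passed. With 1 library left out, the values ranged from -0.050 to 0.046 for CDT1, -0.020 to 0.030 for MCM6, -0.035 to 0.015 for MCM7, -0.031 to 0.017 for RFC5, -0.021 to 0.026 for LIG1, -0.025 to 0.042 for RRM1 and -0.041 to 0.016 for TIMELESS. Signs also changed for RFC5 and TIMELESS with upper-quartile scaling (0.0040 and 0.0021), RFC5 and RPA2 on lane 2 alone (0.0023 and 0.015), TIMELESS on lane 1 alone (0.018) and LIG1 with no filter (-0.0092). The cause was not tested. With the neighbours' median subtracted, CDC6 (-0.30), MCM3 (-0.38) and RFC2 (0.041) changed sign among the called members, by the construction of that setting. Some members that had not passed changed sign there too, among them ORC4 (0.090) and DSCC1 (0.096). No paired analysis was possible because the labels give no replicate numbers shared between the groups.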
